A study of Mus musculus with 23 samples.

Results

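The thoracic aorta of mice that received angiotensin II (Ang II) was compared with that of mice that received its vehicle (Sham). The members are all transcripts whose detection p was below 0.01 on 3 or more of the 6 thoracic arrays, which were 18105 of the 45281 transcripts on the Illumina array. By the signal floor of this rule a gene can enter through 1 group alone. The 6 arrays belong to a series of 23 that also covers abdominal aorta and mesenteric arteries. All donors were male C57BL/6J mice, 12 weeks old when treatment began. AngII mice had been infused under the skin from an osmotic minipump at 490 ng/kg/min for 14 days, and Sham mice had been infused with vehicle for the same time. Each array carried RNA pooled from the thoracic aortas of 2 mice of the same treatment, so n counts pools, with 3 pools in each group. The p-values therefore rest on the spread of pools, not of single mice. Arrays are numbered 1 to 3 within a group only to tell them apart.

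Ang II is the effector peptide of the renin-angiotensin system. It acts on G protein-coupled receptors of smooth muscle, endothelium and fibroblasts, constricts arteries and raises blood pressure. In mice a prolonged infusion is known to thicken the aortic wall, to add collagen to it and to draw leukocytes into the adventitia. The wall consists of an endothelial lining, a media of smooth muscle between elastic sheets, and an adventitia of fibroblasts, matrix, nerves and resident immune cells, with fat around it.

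The values are log2 intensities after background correction and quantile normalization, and a difference is AngII minus Sham on that scale, so that a difference of 1 is a 2-fold change. Transcripts passed when their p in a limma fit of the 6 arrays, adjusted by Benjamini and Hochberg, was under 0.05. All 6 smooth muscle markers were detected on each of the 6 arrays. Arrays of 1 group correlated at 0.991 to 0.9938 and arrays of different groups at 0.9754 to 0.9807 over the transcripts tested. Some arrays stood apart in particular cell type markers: Sham array 1 had the highest brown adipocyte signal of the Sham arrays, Sham array 3 the highest signal of MHC class II genes, and AngII array 2 the lowest macrophage signal of the AngII arrays.

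With AngII, 1756 transcripts rose and 1888 fell, so that 3644 of 18105 passed (20.1%). The shares were 9.7% higher and 10.4% lower. The median difference over all transcripts was -0.03. Falls were as frequent as rises but smaller: the median difference was 0.58 among transcripts that rose and -0.45 among those that fell, and a change of at least 2-fold was seen for 299 that rose against 60 that fell. At 4-fold or more these numbers were 25 and 1. The largest difference, 5.16, was on a transcript to which the annotation gives no gene symbol. Counted once per gene by the probe of highest mean signal, 2087 of 9842 genes passed (21.2%), 1146 higher (11.6%) and 941 lower (9.56%). Counts within gene lists given below stand beside these shares. The AngII and Sham arrays did not overlap for 39.1% of transcripts and 41.6% of genes.

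**Figure D1:**
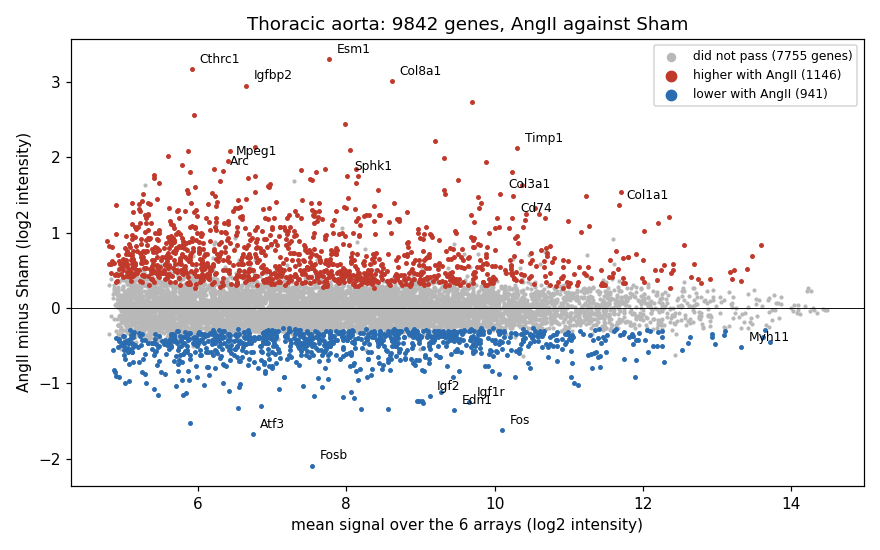
Each point is 1 of 9842 genes, with its mean signal over the 6 thoracic arrays (log2 intensity) on the horizontal axis and AngII minus Sham (log2 intensity) on the vertical axis. Genes that rose (1146, red) reach 3.30 at Esm1, genes that fell (941, blue) reach -2.09 at Fosb, and 7755 genes that did not pass are grey.

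The share of transcripts that passed varied little with signal. In the dimmest of 5 equal bins of mean signal 9.8% rose and 8.29% fell, and in the brightest 8.75% rose and 11.4% fell. With cyclic loess in place of quantile normalization, 61.1% of the transcripts that passed were higher, against 48.2% in the values given here. Without Sham array 2 the number that passed was 2119, and the number that fell was 933 without Sham array 2, 1121 without Sham array 1 and 1165 without AngII array 3.

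Esm1, which encodes endocan, a proteoglycan secreted by endothelial cells, rose most among named genes. Its signals were 6.03, 6.02 and 6.32 on the Sham arrays and 9.51, 9.29 and 9.45 on the AngII arrays. The groups lay far apart, with a difference of 3.30 ± 0.11 (SE, n = 3 pools each, 9.83-fold, adjusted p = 1.62e-06, limma). Col8a1, a short-chain collagen of subendothelial and vascular matrix, measured 7.12, 7.07 and 7.13 in Sham and 10.44, 9.64 and 10.28 in AngII. It rose by 3.01 ± 0.18 (8.08-fold, adjusted p = 6.95e-05, limma), and AngII array 2 was the lowest of its group. Cthrc1, a secreted protein of injured arteries, was detected on no Sham array (signals of 4.36, 4.31 and 4.33, not well above background) and measured 7.75, 6.88 and 7.88 in AngII. It was therefore at least 5.65-fold higher with AngII (adjusted p = 0.000103, limma), a bound that sets the mean of the AngII arrays against the lowest signal of a detected transcript on each Sham array.

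Sphk1, the sphingosine kinase that makes sphingosine-1-phosphate, measured 7.06, 7.11 and 7.24 in Sham and 8.92, 9.12 and 8.61 in AngII. The groups did not overlap, and the rise was 1.75 ± 0.13 (3.36-fold, adjusted p = 0.000118, limma). Fosb, a subunit of the AP-1 transcription factor, went the other way. It measured 8.67, 8.18 and 8.90 in Sham and 6.55, 6.74 and 6.18 in AngII, a fall to a level 4.25-fold lower (difference -2.09 ± 0.19, adjusted p = 0.000236, limma), the largest among named genes.

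**Figure D2:**
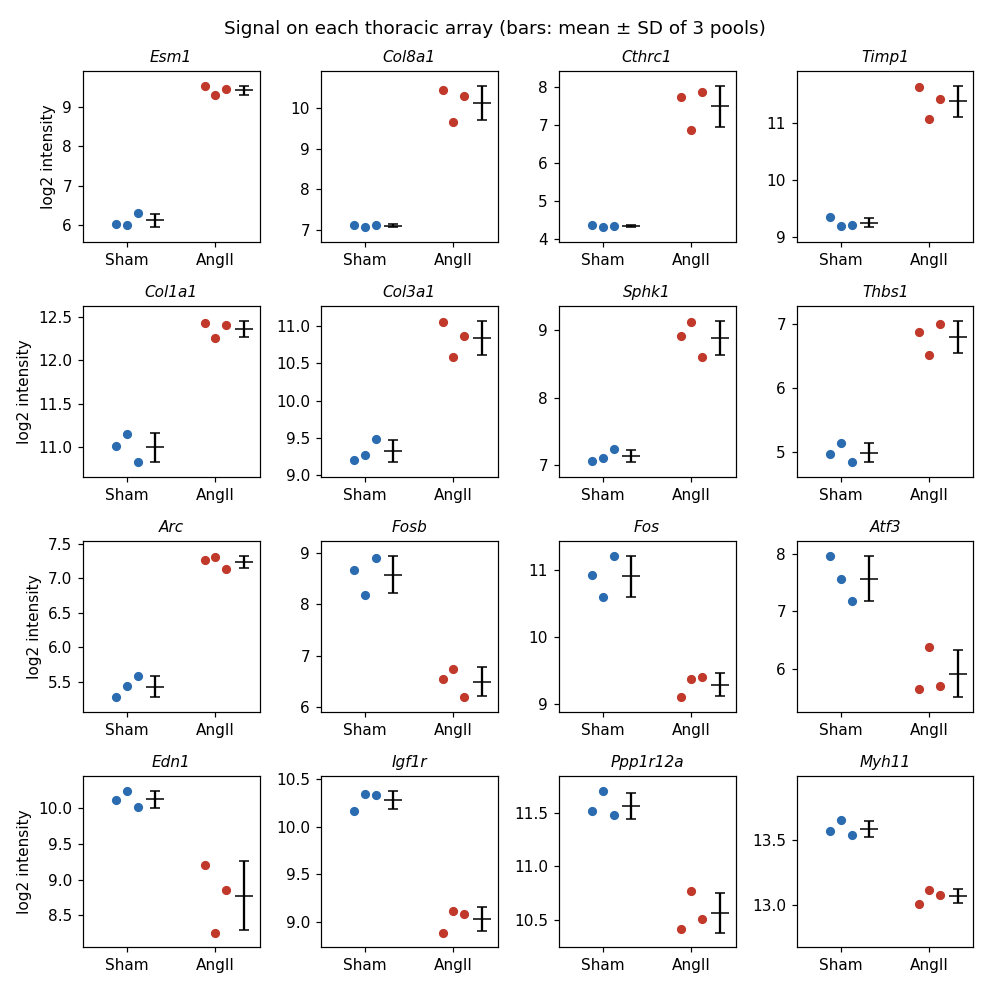
Signal (log2 intensity) of 16 genes on each Sham (blue) and AngII (red) array, with the mean ± SD of 3 pools as black bars and a separate vertical scale for each gene. All 16 genes were among those that passed. The groups do not overlap for any of them, nor for 41.6% of all genes tested, and the 3 Sham arrays of Cthrc1 were not well above background.

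Markers of the cell types of the wall and of the tissue around it did not move together. Of 19 macrophage markers measured, 11 rose and none fell (median difference 0.67), and their summed signal was 6102 to 6971 in Sham and 8160 to 13260 in AngII. The number that rose was 16 without AngII array 2 and 8 without AngII array 1. It was 9 or 10 without any 1 of the other arrays. Mpeg1, a pore-forming protein of macrophages, measured 5.21, 5.21 and 5.89 in Sham and 7.64, 6.75 and 7.77 in AngII and rose by 1.95 ± 0.27 (adjusted p = 0.00163, limma). Cx3cr1, the fractalkine receptor, rose by 1.32, and Aif1 and Laptm5 rose by 0.85 and 1.07. The resident macrophage markers Lyve1 and Cd163 did not pass, each with a difference of 0.16, nor did the mannose receptor gene Mrc1 with 0.36. Over all genes tested the median difference was -0.01.

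Of 15 adventitial fibroblast markers, 9 rose and none fell (median 0.40), with a summed signal of 35065 to 35974 in Sham and 44687 to 50898 in AngII. Lum, a collagen-binding proteoglycan, rose by 1.48, Cd248, a surface protein of perivascular stromal cells, by 1.06, and Dpt, a matrix protein, by 0.95. Without AngII array 3 the number that rose was 5. The fibroblast genes Dcn and Clec3b did not pass, with differences of 0.13 and -0.00. Smooth muscle markers had a summed signal of 46939 to 49953 in Sham and 41760 to 43512 in AngII. Of the 6, Myh11 and Cnn1 fell by 0.52 and 0.36, while Acta2 and Tagln did not pass, at -0.02 and 0.06.

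Endothelial markers were divided. Of 18 measured, 6 rose and 1 fell, and the summed signal overlapped between the groups, at 10951 to 11537 in Sham and 11450 to 12178 in AngII. Gpihbp1, the lipoprotein lipase anchor of capillary endothelium, rose by 1.75, Robo4 by 1.43 and Emcn by 1.18. Pecam1 fell by 0.54, and Cdh5, Tie1 and Nos3 did not pass, with differences of 0.38, 0.04 and 0.16. In RNA from a whole vessel, fewer cells of a type and less RNA per cell cannot be told apart.

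Adipocyte genes were detected in both groups. Of 14 white adipocyte markers, 9 rose and 1 fell (median 0.89), and their summed signal was 14422 to 20361 in Sham and 26207 to 30346 in AngII. The number that rose was 6 without AngII array 1, AngII array 2 or Sham array 2. It was 7 without Sham array 3 and 11 without AngII array 3 or Sham array 1. Adipoq, the adipokine adiponectin, rose by 1.19 ± 0.16, Pparg by 1.24 and Lpl by 1.02, while Plin4 fell by 0.39. Plin4 passed in 2 of the 6 fits that left out 1 array. Of 10 brown adipocyte markers 2 rose, Slc27a2 by 1.28 and Elovl3, which was detected on no Sham array. Ucp1, the uncoupling protein of brown fat, measured 10.98, 10.09 and 9.87 in Sham and 11.47, 10.89 and 10.79 in AngII. The groups overlapped and Ucp1 did not pass (difference 0.74, adjusted p = 0.0885, limma), as the highest Sham array lay above 2 of the 3 AngII arrays. The summed brown adipocyte signal overlapped too, at 4189 to 9967 in Sham and 9120 to 11803 in AngII. Without Sham array 1, the highest of its group, 8 of the 10 rose.

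**Figure D3:**
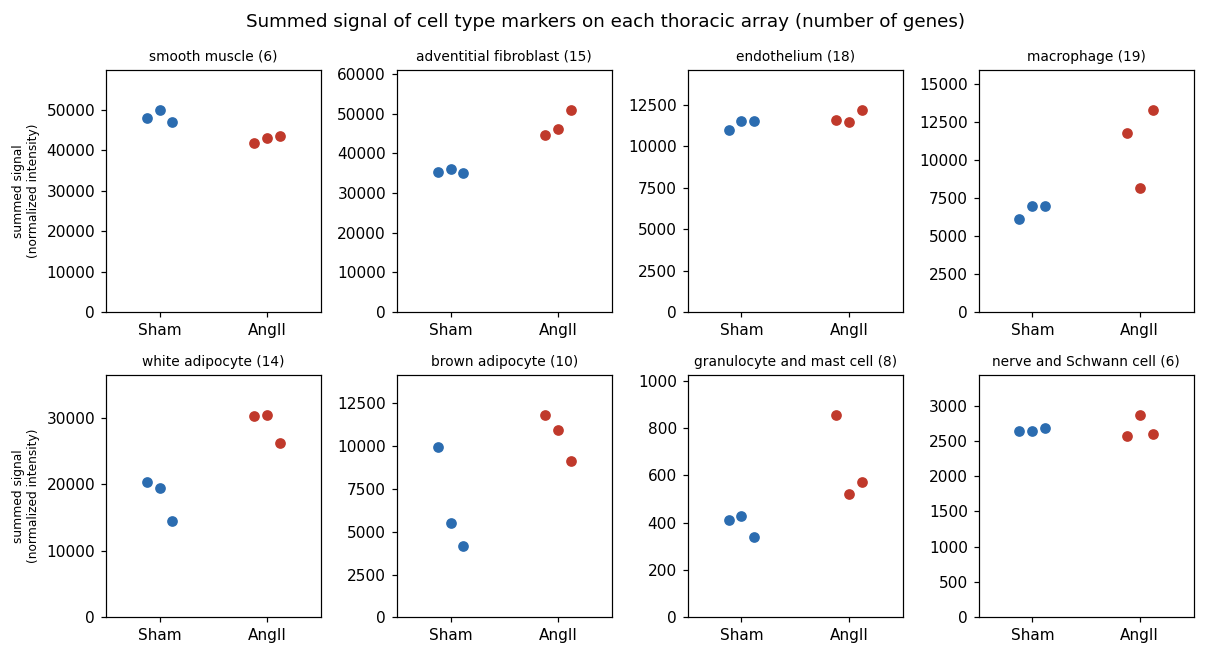
Summed signal of the markers of 8 cell types on each thoracic array, in normalized intensity units on axes that start at 0, with the number of genes in brackets. Sham (blue) and AngII (red) arrays do not overlap for smooth muscle, adventitial fibroblast, macrophage, white adipocyte and granulocyte and mast cell markers, and overlap for endothelium, brown adipocyte and nerve and Schwann cell markers.

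Other tissues were checked in the same way. Of 8 granulocyte and mast cell markers 5 rose, among them the mast cell proteases Cpa3 by 0.98 and Cma1 by 0.90, and the summed signal was 341 to 430 in Sham and 519 to 853 in AngII, and 3, 2 and 2 passed without Sham arrays 1, 2 and 3. Of 6 nerve and Schwann cell markers 3 rose, including Mbp by 0.62 and Egr2 by 0.88. Upk3b, a mesothelial marker detected on 1 Sham array and on each AngII array, rose by 1.89. The defining genes of heart and skeletal muscle Myh6, Myl2, Acta1 and Ckm, of lung Sftpb and Sftpc and of liver Alb were detected on none of the 6 arrays. Other members of these lists were detected, among them Myl4, Ryr2, Myl1, Eno3 and Trf on 6 arrays, Ahsg on 4, and Mb and Foxj1 on 3. Of 2 heart muscle markers measured 1 rose, with a summed signal of 517 to 550 in Sham and 648 to 661 in AngII. Of 5 liver markers measured 4 rose, and no skeletal muscle or lung marker passed. Mup2 and Mup6, major urinary proteins known chiefly from the liver, rose by 2.73 and 2.13, and Cyp2e1 by 1.80. The Mup genes are near-identical copies, so that a probe may read several of them.

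When the mean log2 signal of a marker list on each array was added to the fit as a covariate, 531 transcripts passed with the white adipocyte list, 1141 with the brown adipocyte list and 265 with the macrophage list. These covariates were themselves correlated with the treatment (r = 0.833, 0.716 and 0.849 over the 6 arrays). Esm1, Col8a1, Cthrc1 and Sphk1 passed in each of the 3 fits, with adjusted p of 0.000178 to 0.0164 in limma. Fosb passed with both adipocyte lists and had an adjusted p of 0.0557 with the macrophage list (limma).

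Fibrillar collagens, which give the wall tensile strength, were mostly higher. Of 9 measured with their partners, 7 rose and none fell (median 0.75). Col1a1 measured 11.01, 11.15 and 10.82 in Sham and 12.43, 12.26 and 12.41 in AngII, and Col3a1 measured 9.21, 9.27 and 9.49 in Sham and 11.05, 10.59 and 10.87 in AngII. Neither overlapped between groups, and the rises were 1.37 ± 0.11 (2.59-fold, adjusted p = 0.000136) and 1.51 ± 0.13 (2.86-fold, adjusted p = 0.000184) in limma. Col1a2 and Col16a1 rose by 1.06 and 0.94. The beaded-filament collagens Col6a1 and Col6a2 did not pass, with differences of 0.18 and 0.25. With the macrophage covariate 2 of the 7 passed, and with the white adipocyte covariate 4, although all 7 differences stayed above 0. That of Col1a2 was 0.90 with the macrophage list, and that of Col16a1 was 0.76 with the macrophage and 0.86 with the white adipocyte list.

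Basement membrane genes moved both ways. Of 19, 7 rose and 2 fell (median 0.29). Nid1 and Nid2, which link laminin to collagen IV, rose by 0.92 and 0.59, and Col15a1 rose by 0.73. Lama4, a laminin chain of endothelial and muscle basement membranes, measured 6.48, 6.65 and 6.22 in Sham and 5.52, 5.57 and 5.51 in AngII and fell by 0.92. The main chain gene Col4a1 did not pass (0.15), whereas Col4a2 rose by 0.40. Hspg2, which encodes perlecan, did not pass (-0.04).

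Enzymes that hydroxylate, trim and cross-link collagen mostly rose or did not pass. Of 17, 8 rose and 1 fell (median 0.26). Ctsk, the collagen-cleaving protease cathepsin K, measured 9.49, 9.51 and 9.51 in Sham and 10.97, 10.88 and 11.11 in AngII and rose by 1.49 ± 0.09 (adjusted p = 6.95e-05, limma). The lysyl hydroxylase Plod2 rose by 0.76, the prolyl hydroxylase P4ha1 by 0.52, the procollagen protease Bmp1 by 0.56 and the cross-linking enzyme Lox by 0.64. Pcolce2 fell by 0.28, but passed in none of the 6 fits that left out 1 array. The collagen chaperone gene Serpinh1 did not pass (0.18).

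Elastic fibre genes rose in most cases. Of 11, 7 rose and 1 fell (median 0.52). Eln, which encodes elastin, rose by 0.52, Mfap2 by 0.97, Mfap4 by 0.58 and Fbln2 by 0.62. Ltbp4, which binds latent TGF-beta and is needed for elastic fibre assembly, measured 12.45, 12.29 and 12.31 in Sham and 11.49, 11.35 and 11.45 in AngII. It fell by 0.92 ± 0.09 (adjusted p = 0.00031, limma) without overlap. Without AngII array 3 or without Sham array 1, 4 of the 7 still passed.

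Proteoglycans had no common direction. Of 20, 6 rose and 3 fell (median 0.03). Next to Esm1 and Lum, the syndecan Sdc3 rose by 1.35 and the cartilage proteoglycan Acan by 1.27, and a second Acan probe gave 1.22. Fmod, Ogn and the glypican Gpc6 fell by 0.54, 0.36 and 0.47. The abundant arterial proteoglycans Bgn, Vcan and Dcn did not pass, with differences of -0.08, 0.03 and 0.13. Acan also belongs to a list of 10 genes known from cartilage and bone, of which 5 rose and 3 fell: Sox9, the transcription factor of cartilage, rose by 1.24 ± 0.09 (adjusted p = 0.000123, limma) and Runx1 by 0.86, while Alpl and Cytl1 fell by 0.54 and 0.63 and Sp7 was detected on each Sham and on no AngII array.

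Matricellular proteins, which signal between matrix and cells, had 11 rises and 1 fall among 20 (median 0.47). Thbs1, a thrombospondin that activates latent TGF-beta, measured 4.98, 5.15 and 4.85 in Sham, where it was detected on 2 arrays, and 6.88, 6.52 and 7.01 in AngII. It rose by 1.81 ± 0.14 (adjusted p = 0.000123, limma). Comp, a thrombospondin of cartilage and vessel wall, rose by 1.56, Ccn4 by 1.39 and Fn1, which encodes fibronectin, by 1.13. On the 3 AngII arrays Fn1 was nearly constant, at 12.78, 12.77 and 12.76. Postn and Tnc, found in remodelling tissue, rose by 0.77 and 0.48, and Tnxb fell by 0.36. Ccn2 and Ccn1, both known as early targets of mechanical load, did not pass, with differences of 0.22 and -0.54, nor did Mgp (-0.01).

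Proteases and their inhibitors changed in both directions. Of 22, 7 rose and 5 fell (median 0.15), and 3 fell without Sham array 1 or Sham array 2. Timp1, an inhibitor of metalloproteinases, measured 9.34, 9.19 and 9.21 in Sham and 11.62, 11.07 and 11.42 in AngII and rose by 2.12 ± 0.14 (4.35-fold, adjusted p = 7.55e-05, limma). Its relative Timp4 fell by 0.74. Mmp2, the gelatinase of fibroblasts and smooth muscle, measured 10.94, 11.01 and 10.86 in Sham and 12.50, 12.36 and 12.58 in AngII, a rise of 1.54 ± 0.10 (adjusted p = 6.95e-05, limma). The plasminogen activators Plau and Plat rose by 1.34 and 0.93. Adamts1 and Adamts15, which cut aggrecan-like proteoglycans, fell by 0.70 and 0.72, and Timp3 and Mmp14 did not pass, with 0.04 and 0.38.

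Integrins, the cell's receptors for matrix, were divided by subunit. Of 15, 4 rose and 4 fell, and 2 fell without Sham array 2. The collagen receptor subunit Itga11 rose by 1.23 and the fibronectin receptor subunit Itga5 by 0.66. Itga8, a subunit of smooth muscle, measured 10.55, 10.80 and 10.83 in Sham and 9.66, 9.86 and 9.93 in AngII and fell by 0.91 ± 0.11 (adjusted p = 0.000959, limma). Itga7 and Itga1 fell by 0.42 and 0.37, and the shared subunits Itgb1 and Itgav did not pass, at -0.12 and -0.01.

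**Figure D4:**
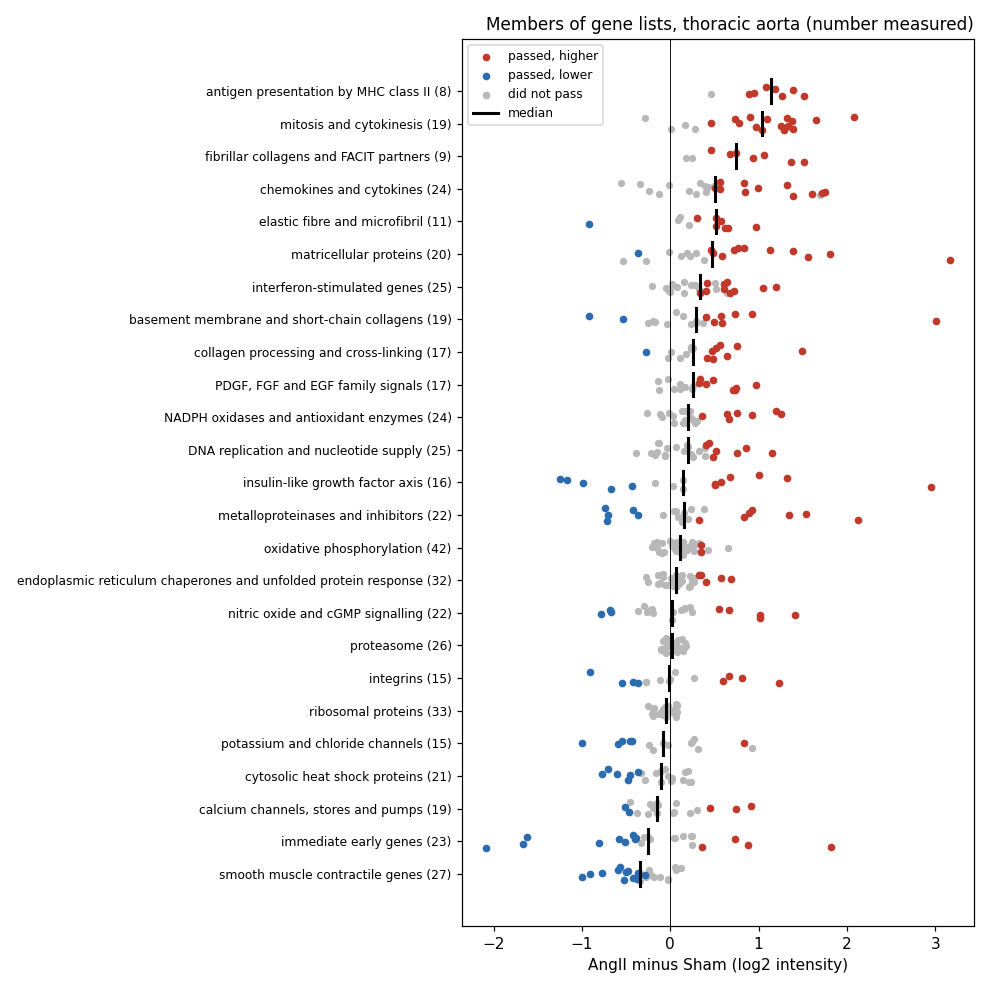
AngII minus Sham (log2 intensity) of each measured member of 25 gene lists in thoracic aorta, with the number measured in brackets, members that passed in red (higher) or blue (lower), others in grey and the median of each list as a black bar. Medians run from 1.13 for antigen presentation by MHC class II and 1.04 for mitosis and cytokinesis (0.89 with 4 members detected on no Sham array set to their lower bound) to -0.34 for smooth muscle contractile genes, and no member of the proteasome and ribosomal protein lists passed.

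Components of the TGF-beta pathway, which drives matrix production, passed at about the share of all genes. Of 18, 1 rose and 3 fell (median 0.01), so 22.2% passed, against 21.2% of all genes tested. None rose without Sham array 1 or Sham array 2, and 2 rose without AngII array 3. The ligand Tgfb1 rose by 0.47, Thsd4, which takes part in microfibril assembly, fell by 0.71, and the repressor Ski and the co-receptor Tgfbr3 fell by 0.44 and 0.39. Tgfb2, Tgfb3, Tgfbr1 and Tgfbr2 did not pass, with differences of -0.16, 0.05, 0.24 and -0.12. Among 19 BMP genes 2 rose and 3 fell (26.3% passed, against 21.2% of all genes tested). Both that rose encode extracellular modulators: Fst, which binds activin, by 1.62 ± 0.16 (adjusted p = 0.000346, limma), and Bmper, which binds BMPs, by 1.60 ± 0.22 (adjusted p = 0.00147, limma). The ligands Bmp3 and Bmp4 fell by 0.74 and 0.57, and Id1, a target of BMP signalling, did not pass (-0.07).

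Of 24 genes of the Wnt pathway, 6 rose and 4 fell (median 0.11). Wnt2 rose by 1.22, and 3 secreted antagonists rose, Sfrp4 by 1.23, Frzb by 0.93 and Wif1 by 0.60. The receptor Fzd2 and the intracellular inhibitor Nkd1 fell by 0.63 and 0.67, and the target Axin2 did not pass (0.08). In the Notch list of 12 genes Notch3, the receptor of arterial smooth muscle, fell by 0.45 and none rose.

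The insulin-like growth factor axis changed at most of its steps, with 7 rises and 5 falls among 16 genes. Without Sham array 1 or Sham array 2 the falls were 3. Of the ligands, Igf1 measured 8.96, 9.28 and 9.16 in Sham and 10.46, 10.23 and 10.66 in AngII, a rise of 1.32 ± 0.13 (adjusted p = 0.000303, limma). Igf2 measured 9.62, 9.78 and 9.72 in Sham and 8.30, 8.60 and 8.72 in AngII, a fall of 1.17 (adjusted p = 0.000365, limma). The ligands thus moved in opposite directions, each without overlap. The receptor Igf1r measured 10.17, 10.34 and 10.33 in Sham and 8.89, 9.12 and 9.08 in AngII and fell by 1.25, to a level 2.38-fold lower (adjusted p = 0.000136, limma). The insulin receptor gene Insr fell by 0.43 and the adaptor Irs2 by 0.67, whereas Igf2r, which clears Igf2, rose by 0.57. Among binding proteins, Igfbp2 measured 5.49, 5.27 and 4.76 in Sham, detected on 2 arrays, and 8.50, 8.35 and 7.53 in AngII, a rise of 2.95 ± 0.26 (adjusted p = 0.000188, limma). Igfbp3 and Igfbp6 rose by 1.0 and 0.68, and Igfbp4, Igfbp5 and Igfbp7 did not pass, with 0.15, 0.15 and 0.03.

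Of 17 genes of the PDGF, FGF and EGF families, 8 rose and none fell (median 0.26). Pdgfb rose by 0.97, Pdgfc by 0.74 and Hbegf, an EGF receptor ligand, by 0.73, as did Etv5, a target of FGF signalling, by 0.71. The receptors Pdgfrb, Egfr and Fgfr1 did not pass, with 0.04, 0.25 and 0.11. Leaving out any array but Sham array 3 left 5 of the 8. Of 15 angiogenic genes 6 rose. Angptl1, a secreted relative of the angiopoietins, measured 8.05, 8.20 and 8.02 in Sham and 10.02, 10.31 and 10.60 in AngII and rose by 2.22 ± 0.14 (adjusted p = 7.55e-05, limma). Adgrl4, an endothelial adhesion receptor, rose by 1.31, and the apelin receptor Aplnr was at least 1.91-fold higher with AngII because no Sham array detected it. Vegfa, Vegfc and Angpt2 did not pass, with 0.47, -0.01 and -0.10.

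Genes of the contractile apparatus fell or did not pass. Of 27, 12 fell and none rose, and the median was -0.34. Ppp1r12a, the targeting subunit of myosin phosphatase, measured 11.51, 11.70 and 11.48 in Sham and 10.42, 10.77 and 10.51 in AngII. It fell by 1.0 ± 0.11 (adjusted p = 0.000653, limma), and Ppp1r14a, an inhibitor of the same phosphatase, fell by 0.77. Myh11, the smooth muscle myosin heavy chain, measured 13.57, 13.66 and 13.54 in Sham and 13.01, 13.12 and 13.08 in AngII, a fall of 0.52 ± 0.09 (adjusted p = 0.00368, limma). Mylk, the myosin light chain kinase, fell by 0.29, which passed in none of the fits that left out 1 array, and the transcription factor Srf by 0.57. Its cofactor Myocd did not pass (-0.34), nor did Tagln (0.06) and Acta2, which measured 14.45, 14.53 and 14.43 in Sham and 14.39, 14.43 and 14.53 in AngII with complete overlap. The number that fell was 19 with a trended and robust prior. With the covariates it was 1 with the white adipocyte, 4 with the brown adipocyte and 0 with the macrophage list, although all 12 differences stayed below 0. That of Myh11 was -0.57, -0.50 and -0.46 in these 3 fits and that of Ppp1r14a was -0.72, -0.81 and -0.84.

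Actin regulators had 12 rises and 2 falls among 41 genes. Those that rose include leukocyte forms, Coro1a by 1.31, Lcp1 by 0.77 and Capg by 0.87, and the calcium-binding protein S100a4 by 1.17. The formin Diaph1 fell by 0.44. Actb did not pass on its brightest probe (0.03). Without AngII array 1 or Sham array 1 the number that rose was 7.

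Among 19 calcium channel and store genes, 3 rose and 2 fell (26.3% passed, against 21.2% of all genes tested). The number that fell was 1 without AngII array 1, AngII array 3, Sham array 1 or Sham array 2, and 3 without Sham array 3, while 2 rose without AngII array 1, AngII array 3 or Sham array 3. Cacna1d, an L-type channel subunit, rose by 0.75, and the T-type subunit Cacna1h was detected on no Sham array. Atp2a2, the calcium pump of the sarcoplasmic reticulum, fell by 0.51 and the auxiliary subunit Cacnb2 by 0.47. Among 15 potassium and chloride channel genes, 1 rose and 5 fell. Kcnma1, the large-conductance potassium channel that opposes constriction, fell by 0.45, Kcnab1 by 0.55, Kcnq5 by 0.59 and Abcc9, the regulatory subunit of the ATP-sensitive channel, by 0.43. Kcnmb1, the smooth muscle partner of Kcnma1, did not pass (-0.02), and Kcnj15 rose by 0.84.

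Agtr1a, which encodes the AT1a subtype of Ang II receptor, rose by 0.35 ± 0.10 (adjusted p = 0.035, limma), from 5.90, 5.95 and 5.71 to 6.16, 6.30 and 6.16. Agtr1a did not pass in any fit that left out 1 array. Ace, which makes Ang II, rose by 0.57, with 2 further probes at 0.54 and 0.63. Rcan1, a feedback inhibitor induced by calcineurin, measured 8.97, 9.26 and 8.98 in Sham and 10.51, 10.28 and 10.10 in AngII and rose by 1.23 ± 0.13 (adjusted p = 0.000411, limma), while Rcan2 fell by 0.59. Of 9 genes measured in this list 4 rose, and 2 still passed without Sham array 2 or without Sham array 3. RGS genes, which turn off G protein signals, had 1 rise (Rgs10, 0.71) and 1 fall (Rgs7bp, -0.44) among 15, and Rgs2, Rgs4 and Rgs5 did not pass, with -0.03, -0.17 and 0.09. Of 13 receptors for constrictors and dilators, the nucleotide receptors P2ry14 and P2ry6 rose by 0.88 and 0.68, and Tbxa2r, the thromboxane receptor, fell by 0.42. The list had 4 rises, and 2 without Sham array 1 or Sham array 2.

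Edn1, the precursor of the constrictor endothelin-1, measured 10.12, 10.24 and 10.01 in Sham and 9.21, 8.26 and 8.86 in AngII. The groups did not overlap, and it fell by 1.35 ± 0.20, to a level 2.54-fold lower (adjusted p = 0.00242, limma). The endothelin receptor Ednrb rose by 0.72, and the converting enzyme Ece1 did not pass (-0.10). Adm, the dilator peptide adrenomedullin, fell by 1.02, from 6.70, 6.23 and 6.84 to 5.64, 5.33 and 5.75. Npr1 and Npr2, receptors for natriuretic peptides, did not pass, with -0.05 and -0.13.

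In nitric oxide signalling 5 of 22 genes rose and 3 fell. The genes of soluble guanylate cyclase, which senses nitric oxide in smooth muscle, both fell without overlap: Gucy1a1 by 0.78 ± 0.11 (adjusted p = 0.0017, limma) and Gucy1b1 by 0.67 ± 0.10 (adjusted p = 0.00261, limma). Pde5a, which breaks down cGMP, fell by 0.68. Nostrin, which binds the endothelial synthase, rose by 1.02, Pde1b by 1.02 and Gch1, which makes a cofactor of the synthase, by 0.67. The number that rose was 3 without AngII array 1, AngII array 3 or Sham array 1. Nos3, the synthase itself, measured 8.61, 8.75 and 8.45 in Sham and 8.72, 8.71 and 8.87 in AngII and did not pass. In the sphingolipid list 6 of 23 genes rose and none fell (26.1% passed, against 21.2% of all genes tested). After Sphk1 came the receptor S1pr2 (0.54), the phosphatases Plpp1 and Plpp2 (0.46 and 0.47) and the lyase Sgpl1 (0.39), while Sphk2 and the ceramidase Asah1 did not pass, with -0.27 and 0.28.

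Immediate early genes, which respond within minutes to growth factors and stress, moved both ways. Of 23, 4 rose and 9 fell (median -0.25). Arc, best known from neurons, measured 5.27, 5.43 and 5.58 in Sham and 7.27, 7.31 and 7.14 in AngII and rose by 1.82 ± 0.10 (3.52-fold, adjusted p = 6.95e-05, limma). Egr2 and Egr3 rose by 0.88 and 0.73 and Junb by 0.36. Fos measured 10.93, 10.60 and 11.21 in Sham and 9.10, 9.37 and 9.41 in AngII and fell by 1.62, to a level 3.07-fold lower (adjusted p = 0.000264, limma), beside Fosb. Atf3, a stress-induced factor, measured 7.97, 7.56 and 7.18 in Sham and 5.65, 6.38 and 5.69 in AngII and fell by 1.67 (adjusted p = 0.00157, limma). Jun fell by 0.81, Dusp1 by 0.51 and Egr1 by 0.42. Cytosolic heat shock genes had 6 falls and no rise among 21, with Hspa1a at -0.77, Hspa1b at -0.60 and Hspb6, abundant in smooth muscle, at -0.48. Hspa8, Hsp90aa1 and Cryab did not pass, with -0.10, -0.06 and 0.01. Hspa1a and Hspa1b are near-identical copies and were not told apart with certainty. The heat shock number was 3 without Sham array 1 or Sham array 2.

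Of 24 chemokine and cytokine genes, 11 rose and none fell (median 0.50), and the number was 17 without AngII array 2, the array of lowest macrophage signal in its group. Ccl5 and Ccl4, which attract T cells and monocytes, were detected on no Sham array and were at least 2.02-fold and 2.40-fold higher with AngII (adjusted p = 0.000264 and 0.000363, limma). Cxcl9, induced by interferon gamma, rose by 1.60, from 5.40, 5.44 and 4.66 to 6.65, 7.07 and 6.56. Cx3cl1, the ligand of Cx3cr1, rose by 0.84 and Cxcl12 by 0.56. Ccl21a rose by 1.75 and Ccl21c by 1.84, 2 near-identical copies. Ccl8 varied most, from 5.56 to 7.54 in Sham and from 7.09 to 9.23 in AngII, and did not pass (difference 1.69 ± 0.56, adjusted p = 0.0624, limma), nor did Ccl11 and Ccl7, with -0.56 and 0.34. Of 11 leukocyte adhesion genes, Cd44, Selplg and Vcam1 rose by 1.07, 1.01 and 0.93, and Icam2 fell by 0.31. Of 12 complement genes 5 rose, with C4b at 0.80 and Masp1 at 0.79, and 9 passed without AngII array 2.

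Genes of antigen presentation by MHC class II rose almost throughout. Of 8 measured, 7 rose and none fell (median 1.13). The number that rose was 5 without AngII array 1, AngII array 3, Sham array 1 or Sham array 2. It was 7 without AngII array 2 and 8 without Sham array 3. H2-Aa and H2-DMa each passed in 2 of the 6 fits that left out 1 array. H2-Eb1, a class II beta chain, measured 8.13, 8.34 and 9.26 in Sham and 10.22, 9.86 and 10.18 in AngII. Cd74, the invariant chain that guards the peptide groove, measured 9.26, 9.54 and 10.13 in Sham and 11.01, 10.52 and 10.97 in AngII. Sham array 3 was the highest Sham array for both, and the rises were 1.51 ± 0.25 (adjusted p = 0.004) and 1.19 ± 0.21 (adjusted p = 0.00541) in limma. H2-Aa, an alpha chain, rose by 1.27 ± 0.32 (adjusted p = 0.0246, limma), although its lowest AngII array (8.93) lay just below its highest Sham array (8.97). The class II genes H2-Ab1, H2-DMa, H2-DMb1 and H2-DMb2 rose by 1.39, 0.89, 1.08 and 0.95, the protease Ctss did not pass (0.46), and copies within the family could share probes. With the macrophage covariate 0 of the 7 passed, with differences between 0.21 (H2-DMa) and 0.88 (H2-Eb1). On arrays 1 to 3 the summed macrophage signal was 6102, 6971 and 6944 in Sham and 11749, 8160 and 13260 in AngII. That of class II genes was 1827, 2068 and 3603 in Sham and 6394, 4649 and 6357 in AngII. The part of macrophage signal in the class II values was not tested.

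Genes induced by interferon rose or did not pass. Of 25, 10 rose and none fell (median 0.34). Rsad2, an antiviral enzyme, measured 5.56, 5.45 and 5.49 in Sham and 6.54, 7.04 and 6.53 in AngII and rose by 1.20 ± 0.14 (adjusted p = 0.000666, limma). Lgals3bp rose by 1.05, Usp18 by 0.72, Isg15, a ubiquitin-like modifier, by 0.68 and Ifit3 by 0.61. Mx2, Tap1 and Stat2 did not pass, with 0.00, 0.00 and 0.08, and 6 of the 10 passed without AngII array 3.

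The promoters of 4 of these genes are printed because members of both lists rose. Each is 250 bases before to 50 bases after the start of transcription, 300 bases in all, 5′ to 3′ on the strand of the gene, from RefSeq on build GRCm38.p6. Capitals mark matches on either strand to the core of the interferon-stimulated response element, searched as GAAA, any 2 bases and GAAA again, in Isg15 (chr4:156200769-156201068, minus strand) and Ifit3 (chr19:34583279-34583578, plus strand), and to CTGATTGG, a form of the Y box of class II promoters, in H2-Aa (chr17:34287774-34288073, minus strand) and H2-Eb1 (chr17:34305617-34305916, plus strand). CTGATTGG contains the reverse complement of CCAAT.
Isg15: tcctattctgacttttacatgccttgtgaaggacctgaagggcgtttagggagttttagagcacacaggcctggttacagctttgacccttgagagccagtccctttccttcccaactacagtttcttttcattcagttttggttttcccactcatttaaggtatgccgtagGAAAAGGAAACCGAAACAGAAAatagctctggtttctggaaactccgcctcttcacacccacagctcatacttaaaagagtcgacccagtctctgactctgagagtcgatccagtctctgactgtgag
Ifit3: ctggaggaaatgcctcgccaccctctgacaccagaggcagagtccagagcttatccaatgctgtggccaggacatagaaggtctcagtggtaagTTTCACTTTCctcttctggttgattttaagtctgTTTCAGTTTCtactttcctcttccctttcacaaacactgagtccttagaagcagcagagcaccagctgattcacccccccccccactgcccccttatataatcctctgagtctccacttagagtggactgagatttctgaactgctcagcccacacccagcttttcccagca
H2-Aa: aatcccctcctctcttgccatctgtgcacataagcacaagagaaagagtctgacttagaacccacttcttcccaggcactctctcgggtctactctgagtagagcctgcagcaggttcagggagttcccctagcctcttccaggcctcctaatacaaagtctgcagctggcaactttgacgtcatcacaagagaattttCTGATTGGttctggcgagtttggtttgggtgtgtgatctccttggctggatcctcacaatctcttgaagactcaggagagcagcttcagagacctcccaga
H2-Eb1: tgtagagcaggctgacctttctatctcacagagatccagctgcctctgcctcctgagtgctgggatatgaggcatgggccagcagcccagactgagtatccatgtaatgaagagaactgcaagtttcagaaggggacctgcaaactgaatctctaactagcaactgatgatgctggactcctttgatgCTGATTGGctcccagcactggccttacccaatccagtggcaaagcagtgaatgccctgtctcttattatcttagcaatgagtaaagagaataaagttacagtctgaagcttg
The interferon motif was present in 14 of the 29 listed interferon genes with a promoter sequence (48.3%), measured here or not, and in 3.99% of the promoters of all 27025 genes. In Isg15 there are 3 overlapping matches and in Ifit3 there are 2. The Y box form was present in 3 of 8 class II genes (37.5%) and in 4.7% of all genes. A match is a run of letters in this window and was not tested for binding.

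The adult aorta holds few dividing cells, and genes of mitosis were low in Sham. With AngII, 15 of 19 mitotic genes measured rose and none fell (median 1.04, or 0.89 with the 4 detected on no Sham array set to their lower bound). Prc1, which bundles microtubules between separating chromosomes, measured 5.90, 6.27 and 6.28 in Sham and 7.90, 7.93 and 7.58 in AngII and rose by 1.65 ± 0.14 (adjusted p = 0.00017, limma). Cdk1, the kinase that starts mitosis, was detected on no Sham array (4.53, 4.54 and 4.49) and measured 5.67, 6.18 and 5.83 in AngII, at least 1.85-fold higher (adjusted p = 0.00023, limma). Pbk, a mitotic kinase detected on 1 Sham array, rose by 2.08, Cdca3 by 1.39, Cenpa, the histone of centromeres, by 1.32 and Cdkn3 by 1.29. Cdc20 rose by 0.73, with AngII array 3 at 5.76 just above the highest Sham array at 5.63. Foxm1, Bub1b and Anln did not pass, with 0.28, 0.17 and 0.01. Many of these genes entered the test through the AngII arrays alone, so their number is no measure of all mitotic genes on the array, and 6 rose among genes detected on all 6 arrays.

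Genes of DNA replication rose or did not pass. Of 25, 7 rose and none fell (median 0.20), with Tk1, thymidine kinase, at 0.86, Uhrf1 at 1.15, E2f1 at 0.76 and Tyms at 0.52. The helicase genes Mcm2, Mcm3, Mcm4, Mcm5 and Mcm7 did not pass, with differences of -0.14, -0.17, -0.13, 0.39 and -0.15, nor did Pcna (0.19). Without Sham array 2 the number was 4. Among inhibitors of the cell cycle, Cdkn2c and Cdkn1a were among 4 of 15 that rose (1.19 and 0.78; 2 without AngII array 3 or Sham array 2), and Cdkn1b, which holds cells at rest, measured 7.28, 7.62 and 7.26 in Sham and 6.54, 6.57 and 6.74 in AngII and fell by 0.77 (adjusted p = 0.00264, limma).

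Promoters of Prc1 (chr7:80294201-80294500, plus strand) and Cdk1 (chr10:69352863-69353162, minus strand) are printed in the same form and from the same source, as examples of the mitotic genes that rose together. Capitals mark TTTGAA, the cell cycle genes homology region, and CCAAT, the CCAAT box, on either strand.
Prc1: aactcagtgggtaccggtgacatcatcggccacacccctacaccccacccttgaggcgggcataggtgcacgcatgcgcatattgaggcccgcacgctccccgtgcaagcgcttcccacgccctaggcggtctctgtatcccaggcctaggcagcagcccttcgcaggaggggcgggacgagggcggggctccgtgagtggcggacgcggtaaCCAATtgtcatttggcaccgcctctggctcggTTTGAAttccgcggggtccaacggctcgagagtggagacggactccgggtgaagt
Cdk1: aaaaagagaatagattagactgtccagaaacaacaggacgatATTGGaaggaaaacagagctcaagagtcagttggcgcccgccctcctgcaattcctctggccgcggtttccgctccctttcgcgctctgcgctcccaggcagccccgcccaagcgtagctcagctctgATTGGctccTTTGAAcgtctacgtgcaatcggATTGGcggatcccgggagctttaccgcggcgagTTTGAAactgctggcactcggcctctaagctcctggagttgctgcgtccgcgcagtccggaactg
TTTGAA was present in 29 of 37 listed mitotic genes with a promoter sequence (78.4%) and in 20.2% of all 27025 genes. CCAAT was present in 28 of 37 (75.7%) and in 41.1% of all genes. Of 14 mitotic genes that rose and have a promoter sequence, 11 held each motif. In the Cdk1 window there are 2 matches to TTTGAA and 3 to CCAAT, and in the Prc1 window 1 of each. Other motifs were searched too. The E2F site TTTCCCGC was present in 6 of 29 replication genes, in 0 of the 7 that passed and in 1.24% of all genes. The CArG box (CCWWWWWWGG, W for A or T) was present in 4 of 26 contractile and 2 of 26 immediate early genes. It was present in 1.81% of all genes. Of those that passed, 1 of 10 contractile and 2 of 10 immediate early genes held it.

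No gene passed among 33 ribosomal proteins (median -0.05) and 26 proteasome subunits (median 0.01), where differences ran from -0.25 to 0.08 and from -0.11 to 0.18. Of 42 genes of oxidative phosphorylation 2 rose, Ndufb5 and Sdhb by 0.35 each, and 0 passed without any single array other than Sham array 1 or AngII array 2. No gene passed among 23 of fatty acid oxidation (median 0.25), although Cpt1b, found in muscle and brown fat, had a difference of 0.87. Without Sham array 1, the Sham array of highest brown adipocyte signal, 8 of the 23 rose. In glycolysis Ldha rose by 0.40 and Pfkp fell by 0.58, and Gapdh did not pass (0.12). Of 17 sterol genes 4 fell, 1 rose and 12 did not pass (median -0.12). Sqle, Srebf2, Fdps and Lss fell by 0.67, 0.61, 0.60 and 0.43, and Srebf1 rose by 0.50. Lss passed in none and Srebf1 in 2 of the 6 fits that left out 1 array. Of 32 chaperones and sensors of the endoplasmic reticulum 5 rose (2 without AngII array 3 or Sham array 3, 3 without AngII array 2 or Sham array 2), led by Kdelr3 (0.69) and Pdia5 (0.57), and the textbook stress genes Hspa5, Ddit3 and Xbp1 did not pass, with 0.25, -0.25 and -0.06. Of 23 genes of amino acid supply and the stress factor ATF4, 4 rose, 2 fell and 17 did not pass (median 0.0). Psat1 and Asns, which make serine and asparagine, rose by 1.07 and 1.0, and Vldlr and the glutamine transporter Slc38a2 fell by 0.55 and 0.35. Slc38a2 passed in none of the fits that left out 1 array. The share that passed was 26.1%, against 21.2% of all genes tested.

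Of 24 oxidase and antioxidant genes 7 rose and none fell (median 0.20). Gpx3, a secreted glutathione peroxidase, rose by 1.25, Gpx8 by 0.76 and Gpx7 by 0.67, and Ncf4, a subunit of the leukocyte oxidase, by 1.20. Hmox1, which degrades heme, was detected on no Sham array and was at least 1.60-fold higher with AngII. Nox4, the oxidase of the vessel wall, did not pass (-0.12), nor did Sod1, Sod2 and Cat, with 0.18, 0.26 and 0.30. Of 19 glutathione S-transferases 7 rose and 2 fell, Gstm1 by 0.80 and Gstp1 by 0.47, and 4 rose without AngII array 2 or Sham array 3. In the clock list Bhlhe40 rose by 1.15 and Per2 fell by 0.68, whereas Dbp was spread over 9.67, 10.88 and 9.09 in AngII and did not pass (0.85).

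Beyond the largest 10 in each direction, the genes ranked 11 to 40 that passed without overlap of the arrays differed by 2.10 to 1.63 among rises and by -1.25 to -0.96 among falls. The rises include products of leukocytes, Cd52 at 2.10, Lgals3, galectin-3, at 1.94, Cd72 at 1.85, Ms4a7 at 1.70 and Fcgr4 at 1.68. Bcl2a1d and Bcl2a1b, at 2.08 and 1.72, are near-identical copies of an anti-apoptotic gene. Tnfrsf11b, the decoy receptor osteoprotegerin, rose from 8.32 ± 0.10 to 10.31 ± 0.20 (mean ± SD, n = 3 pools each), a difference of 1.99 (adjusted p = 6.95e-05, limma). Secreted proteins among them were Lrg1 at 1.84, Srpx2 at 1.70, haptoglobin Hp at 1.63 and Slpi, a protease inhibitor detected on no Sham array. The membrane proteins Itm2a and Cd109 rose by 1.80 and 1.66.

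The falls of these ranks were led by Igf1r. Kcnc4, a potassium channel, differed by -1.24, Angptl7 by -1.24, the secreted kinase Pkdcc by -1.23 and Bves, a membrane protein of muscle, by -1.19. Mybpc2, a myosin-binding protein of fast skeletal muscle, differed by -1.15, Adam33 by -1.03, the EGF receptor ligand Btc by -1.07 and Stc1 by -0.99. Vwc2 and Nxph1, both secreted, differed by -1.15 and -1.04. Each of these values is a difference of log2 signals with n = 3 pools in each group.

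Some genes crossed the detection limit. On all 3 AngII arrays and no Sham array 95 genes were detected, of which 85 passed, and on all 3 Sham arrays and no AngII array 47 genes, of which 39 passed. These genes were picked by detection on the same arrays that were tested, so their high share of passes was favoured by the choice. Over all genes tested 21.2% passed. For the first group the largest bounds belong to Cthrc1 (at least 5.65-fold), Gpr176, an orphan receptor (at least 4.68-fold), AA467197 (at least 3.03-fold), the collagenase Mmp13 (at least 2.45-fold), Slpi (at least 2.42-fold) and Ccl4 (at least 2.40-fold higher). For the second they belong to Dpysl5 (at least 1.60-fold), Cstad (at least 1.52-fold), 5031434C07Rik (at least 1.48-fold), the ephrin receptor Epha1 (at least 1.48-fold), the potassium channel Kcnk1 (at least 1.43-fold) and Mreg (at least 1.40-fold lower with AngII).

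Of 3828 genes with several probes, 1165 had a probe that passed and 491 had at least 2 that passed in the same direction. In 4 genes probes passed in opposite directions. For Tpm4, a tropomyosin, 2 probes gave 0.72 and 0.86 and another gave -0.31. For Scarb2 they gave 0.32 and -0.51, for Eif1ad 0.32 and -0.44 and for H13 0.31 and -0.49, so that no direction is given for these 4 genes, and Tpm4 counts among the rises of the actin list through its brightest probe only.

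The response was set against that of the abdominal aorta, the most similar vessel of the series, in a fit of 6 group means over all 23 arrays. The difference between the responses passed for 104 of 18105 transcripts (0.574%) and for 69 of 9842 genes (0.701%). In 64 of the 69 genes the thoracic response was the larger in size, and the difference was above 0 in 49. Transcripts had been kept by their detection on thoracic arrays. Genes detected in abdominal aorta alone therefore could not enter, while genes could enter through thoracic AngII arrays alone. These counts are in part set by that rule. Col8a1 differed by 3.01 in thoracic and by 0.67 in abdominal aorta (difference of responses 2.35 ± 0.24, adjusted p = 1.54e-05, limma). Gpr176 differed by 2.56 against 0.64, Cthrc1 by 3.17 against 1.03, Mmp2 by 1.54 against 0.35, Ccn4 by 1.39 against 0.14 and Angptl1 by 2.22 against 0.56. Itm2a differed by 1.80 against -0.01 and H2-M2 by 1.39 against 0.19. Of falls, Zfp385b differed by -0.75 in thoracic and 0.53 in abdominal aorta and Capn13 by -0.82 against 0.03. Adjusted p of the difference ran from 5.33e-05 to 0.00319 for these 9 genes (limma). Gpr176, Cthrc1 and H2-M2 were not well above background on any thoracic Sham array, nor Capn13 on any thoracic AngII array, so their differences are no measured folds.

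Other genes described above that differed between the 2 parts of the aorta include Edn1 (-1.35 against -0.09), Arc (1.82 against 0.28), Fst (1.62 against 0.56), Igfbp3 (1.0 against -0.43), Cdkn1b (-0.77 against 0.25), Ctsk (1.49 against 0.61) and Lum (1.48 against 0.58). For Esm1 (3.30 against 2.33), Col1a1 (1.37 against 0.95), Timp1 (2.12 against 1.67), Sphk1 (1.75 against 0.95) and Fosb (-2.09 against -0.93) the difference did not pass, which does not show that the responses were alike. Pools of different vessels may come from the same mice, which the fit does not take into account. The number of transcripts was 35 without thoracic AngII array 3, 49 and 43 without thoracic Sham arrays 1 and 2, and 66 and 39 without abdominal Sham arrays 1 and 2.

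**Figure D5:**
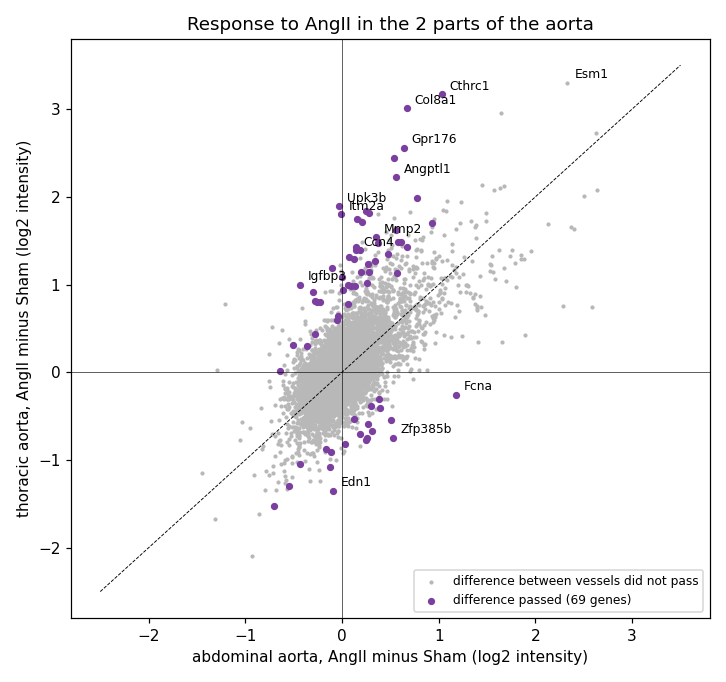
AngII minus Sham (log2 intensity) of each of 9842 genes in abdominal (horizontal axis) and thoracic (vertical axis) aorta, 3 pools in each group, with the line of equal response dashed. Of 69 genes whose responses differed (purple) 49 lie above the line, among them Col8a1 at 0.67 and 3.01, while Esm1 at 2.33 and 3.30 did not pass that test.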

How the data were processed

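Arrays were Illumina WG-6 v2.0 BeadChips, read on a HiScan. The deposited intensities, not normalized between arrays but already background-subtracted (some are below 0), and their deposited detection p-values were used for all 23 arrays. The authors had also deposited log2 values after robust spline normalization (lumi, R 3.0.2), which served as an alternative. Intensities were background corrected and quantile normalized by neqc (offset 16), and transcripts with detection p under 0.01 on at least 3 of the 6 thoracic arrays were kept. limma 3.58.1 in R 4.3.3 fitted 3 AngII against 3 Sham pools, with Benjamini-Hochberg adjustment over 18105 transcripts and a threshold of 0.05. Comparison with abdominal aorta used a fit over 23 arrays. Fits were tested on simulated data. Symbols came from the platform annotation: 34885 probes have 1, 18 have several and 10378 have none. Members and gene lists were chosen with earlier results of these data known. Named genes were the 5 markers, up to 4 members of each list by adjusted p in each direction, up to 4 contrasting members, ranks 11 to 40, the 10 smallest interaction p, the 6 largest bounds, and genes with opposed probes; others named were chosen after their values were seen. Columns of raw values name a group but no replicate; in ranks each of the 23 matched a deposited log2 column of its own group. The covariate fits were chosen after seeing the data. The alternatives tried are given after the report.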

Additional observations from a re-analysis of the deposited data

Results flagged for a closer look

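The genes given here are those named above whose response to AngII differed between thoracic and abdominal aorta, each by the test of that difference (limma, adjusted over all transcripts). Each value is the thoracic response minus the abdominal response in log2 units, with 3 pools of 2 mice in each of the 4 groups.

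Among matrix genes and their enzymes the difference was 2.35 for Col8a1, 2.14 for Cthrc1, 1.25 for Ccn4, 1.18 for Mmp2, 0.88 for Ctsk, 0.90 for Lum, 0.87 for the syndecan Sdc3 and 0.95 for the integrin subunit Itga11. It was 0.77 for Srpx2 and 1.66 for Angptl1. Among regulators of growth it was 1.42 for Igfbp3, 1.07 for Fst and -1.02 for the cell cycle inhibitor Cdkn1b.

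Among genes of endothelium it was 1.24 for Adgrl4, 1.29 for Robo4, 0.75 for Nostrin and -1.25 for Edn1. For genes of immune and mesothelial cells it was 1.60 for Ccl21a, 1.59 for Ccl21c, 1.20 for H2-M2 and 1.92 for Upk3b. It was 1.54 for Arc, 1.20 for Tnfrsf11b, 1.93 for Gpr176, 1.81 for Itm2a and 1.21 for Cacna1h. Below 0 it was -1.27 for Zfp385b, -1.05 for Alpl and -0.85 for Capn13. Ccl21a and Ccl21c are near-identical copies. Cthrc1, Gpr176, H2-M2 and Cacna1h were not well above background on any thoracic Sham array, nor Capn13 on any thoracic AngII array, so the values of these 5 genes are no measured folds.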

How the results depend on the processing

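With marker lists as covariates, 531 transcripts passed with the white adipocyte list (347 higher, 184 lower), 1141 with the brown adipocyte list (686 higher, 455 lower) and 265 with the macrophage list (186 higher, 79 lower). Leaving out 1 array each left 2119 to 3018 that passed, 1186 to 1555 higher and 933 to 1463 lower, and 35 to 118 transcripts in the comparison with abdominal aorta. The cause was not tested, though each such fit also has fewer degrees of freedom. Other processing gave 2944 to 4073 that passed. Cyclic loess gave 61.1% higher among 3453, against 48.2%. Of the 265 named genes that passed, Lcp1 alone changed sign under any of these settings, to -0.20 with the macrophage covariate. Many of them were chosen by small adjusted p, which favours such steadiness. Of the 265, 67 passed with the macrophage, 109 with the white adipocyte and 172 with the brown adipocyte covariate. Among all 3644 transcripts that passed, 29 changed sign with the macrophage and 15 with the white adipocyte covariate. Of the 81 named genes that did not pass, 23 changed sign with that covariate, among them Ccl8 (-0.27), Ccl7 (-0.95), Ctss (-0.23), Mrc1 (-0.44) and Lyve1 (-0.75), and 16 and 13 with the white and brown adipocyte covariates. In the 6 fits that each left out 1 thoracic array, 221 of the 265 passed in every fit. Of all 3644 transcripts, 2051 to 2683 passed again in the same direction in a given fit. Agtr1a, Eif1ad, Lss, Mylk, Pcolce2, Scarb2 and Slc38a2 passed in none, and Cdc20, Cnn1, Icam2, Itga1, Lcp1 and Ogn in 1. Neither normalization of the 6 thoracic arrays alone nor the single fit gives a second value for the comparison with abdominal aorta.

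Same-numbered arrays of the authors' table had deviations that correlated at 0.156, -0.0138 and 0.207. These values cannot decide whether the numbers pair the samples, as there is no reference value for paired samples. The labels state no pairing. With the replicate block 3601 transcripts passed, 1749 higher and 1852 lower. With 3 pools in each group the number of arrays limits the precision, and 6242 transcripts had an unadjusted p under 0.05.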
